A study of Homo sapiens with 10 samples.

Results

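Genes of fatty acid synthesis, storage and oxidation were examined in HuCCT1, an established human line of intrahepatic cholangiocarcinoma (bile duct cancer). The list holds 36 genes, taken by name, and 33 of them were measured by a probe set annotated with exactly 1 gene symbol, among 19775 genes so measured in all. Cells with the construct labelled YAPS94A were compared with cells carrying an empty vector, 5 arrays each. YAP1 is the transcriptional co-activator held in check by the Hippo kinases. The construct is S94A in sample labels and title, a change that weakens binding of YAP1 to TEAD factors, but S127A in the design text, a change that makes YAP1 constitutively active. It is called here by its sample label, and this conflict touches every direction given. Time of harvest, selection or cloning of cells, and independence of the 5 cultures behind each vector are not stated in the labels. The p-values therefore reflect only how these arrays scatter, which may be technical.

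Fatty acids are built in the cytosol from acetyl-CoA, elongated and desaturated at the endoplasmic reticulum, and activated to acyl-CoA before any further use. Acyl-CoA is then either esterified step by step to triglyceride, which is kept in lipid droplets coated by perilipins, or carried into mitochondria through the carnitine shuttle for beta-oxidation. The transcription factors SREBP-1 (SREBF1) and ChREBP (MLXIPL) are the classical activators of the synthetic genes, and the PPAR receptors are classical activators of oxidation and of droplet proteins.

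Upstream sequences are shown for PLIN2, CPT1A, ACSL1 and GPAM, which carry the largest rises in storage, oxidation and activation and the largest fall of the list. Each holds the 250 bases before a transcription start in RefSeq (GRCh38.p14), written 5′ to 3′ on the strand of the gene, and all 4 genes lie on the minus strand. PLIN2 is at chr9:19127493-19127742, CPT1A at chr11:68844278-68844527, ACSL1 at chr4:184805554-184805803 and GPAM at chr10:112183766-112184015. For ACSL1, which has several annotated starts, the window with letters of a sterol regulatory element is given. Capitals mark matches on either strand to the motifs described after the sequences.
PLIN2: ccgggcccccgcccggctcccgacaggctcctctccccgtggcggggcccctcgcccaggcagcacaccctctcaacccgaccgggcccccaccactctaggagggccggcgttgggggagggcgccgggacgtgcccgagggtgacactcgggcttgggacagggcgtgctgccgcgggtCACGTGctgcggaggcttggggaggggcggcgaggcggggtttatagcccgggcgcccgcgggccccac
CPT1A: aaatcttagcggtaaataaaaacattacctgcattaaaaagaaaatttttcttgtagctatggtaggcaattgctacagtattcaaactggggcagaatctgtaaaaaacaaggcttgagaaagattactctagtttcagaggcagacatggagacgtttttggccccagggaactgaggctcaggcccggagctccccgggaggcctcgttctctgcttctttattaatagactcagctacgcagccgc
ACSL1: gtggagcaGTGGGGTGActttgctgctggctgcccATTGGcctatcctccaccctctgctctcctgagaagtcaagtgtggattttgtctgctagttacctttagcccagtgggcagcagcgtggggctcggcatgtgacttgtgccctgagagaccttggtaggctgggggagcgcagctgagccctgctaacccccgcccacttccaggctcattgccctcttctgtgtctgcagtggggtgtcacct
GPAM: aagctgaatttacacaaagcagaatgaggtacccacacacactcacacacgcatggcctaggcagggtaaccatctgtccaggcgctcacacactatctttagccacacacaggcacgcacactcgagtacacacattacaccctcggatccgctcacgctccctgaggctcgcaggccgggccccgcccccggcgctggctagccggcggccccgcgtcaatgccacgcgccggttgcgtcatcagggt

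The motifs searched on both strands were TCACNCCAC (letters of a sterol regulatory element, the site of SREBP factors), CACGTG (the E-box), GGAATG (core letters of a TEAD site), CCAAT (the CCAAT box) and a direct repeat of AGGTCA spaced by a single base (the form bound by PPAR receptors). No motif shared letters with another in the printed windows. RefSeq windows were found for 33 of the 36 genes, 53 windows in all, and none for FASN, DGAT1 and DGAT2. The sterol element letters stood before ACSL1 and PNPLA2 only, in 2 of the 53 windows (3.77%), against 0.883% of all 35116 promoters. The E-box stood before PLIN2, 69 bases upstream of its start, and before LPIN2 and ELOVL5, in 5.66% of the windows against 6.34% of all promoters. TEAD core letters were found before ACSL1 (at another start than the one printed), ACSL3, CD36, FADS2 and LPIN1, in 9.43% of windows against 11.9% of all. The CCAAT box was found in 26.4% of windows, against 32.0% of all promoters, and the PPAR repeat in none of the 53, against 0.0171%. The windows of CPT1A and GPAM held none of these letters.

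The arrays were comparable in level, with medians between 6.25 and 6.28 log2 units, and correlated at 0.9957 to 0.9991 within a vector and at 0.9867 to 0.9902 between vectors. The 3′ signal of ACTB exceeded its 5′ signal by 0.76 to 1.43 on YAPS94A arrays and by 0.84 to 1.51 on empty vector arrays, most on YAPS94A array 2 and empty vector array 1, a sign of RNA quality. YAP1 read 12.87, 12.53, 12.90, 12.92 and 13.01 on YAPS94A arrays, against 12.12, 12.05, 12.47, 12.48 and 12.49 with empty vector (0.52 ± 0.11, SE, limma adjusted p = 0.00277). Its other probe sets were higher by 0.56 and 0.60 (limma adjusted p = 0.00121 and 2.12e-05 over all probe sets). The 30 genes nearest to YAP1 on its chromosome (its neighbours) had a median difference of 0.26, and the YAP1 call was lost relative to them (0.26, adjusted p = 0.0821). The YAP1 call held under the other 21 alternatives. All 7 epithelial and bile duct markers were bright (means of 12.68 to 14.18), 5 of them passed as higher by at most 0.33, and their list summed to 16.42 to 16.46 with YAPS94A and 16.26 to 16.30 with empty vector. Of the markers of other cells, COL3A1, CD3E, KDR, TEK, ALB, ADIPOQ and PLIN1 lay at or below 4.74 in both groups, near or under the lower quartile of signals (4.73). Others of these lists were not dim, among them COL1A1 (8.71 with YAPS94A and 8.83 with empty vector) and CIDEC (7.57 and 7.70), neither of which passed. The fibroblast list nevertheless summed to 11.05 to 11.29 with YAPS94A and 9.66 to 9.97 with empty vector (log2 of summed signal), through LUM (10.70 against 8.04). LYZ (5.42 against 6.90) and FABP4 (5.59 against 6.63) were lower, so that the leukocyte list summed to 7.46 to 7.60 against 7.94 to 8.09 and the adipocyte list to 8.39 to 8.59 against 8.69 to 8.87. The endothelial list summed to 7.22 to 7.45 against 7.34 to 7.43, and the hepatocyte list, of which only SERPINA1 was bright, to 12.66 to 12.80 against 12.84 to 12.98. In each case 1 gene passed, in the fibroblast (of 6), leukocyte (of 4), hepatocyte (of 6) and adipocyte (of 6) lists, and 0 of 5 in the endothelial list. The part of these differences in the results was not tested, and in bulk RNA fewer cells of a type and less RNA per cell cannot be told apart.

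With YAPS94A, 17 of the 33 measured genes rose, 5 fell and 11 did not pass the test. The calls thus covered 66.7% of the list, against 36.3% of all genes tested. The list was chosen with earlier results of these data known, so this share is a description. Of all genes, 18.6% were higher and 17.6% lower. Among the 9887 genes above the median level of genes (7.63), calls covered 72.4% of the 29 listed genes and 55.7% of all. A gene passed where its adjusted p (limma, Benjamini-Hochberg, 19775 genes) was below 0.05. The median difference of the list (YAPS94A minus empty vector) was 0.155 log2 units, beside -0.004 over all genes. For 17 of the 33 genes no array of one vector reached into the range of the other, against 29.1% of all genes (5760 of 19775). A difference of at least 0.5 log2 units that passed the test was found for 10 of the 33 genes, against 10.6% of all genes (2103 of 19775).

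All 8 storage genes and all 3 measured activation genes passed, in both directions, with median differences of 0.348 and 0.410. Of 6 elongation and desaturation genes, 4 rose and 1 fell (median 0.254). Of 6 oxidation genes, 3 rose and 1 fell (0.110), and of 6 synthesis genes 2 rose and 4 did not pass (0.104). Neither of the 2 regulators (0.106) nor either gene of lipolysis and uptake (-0.049) passed. These counts are a description, since differences between roles were not tested.

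**Figure D1:**
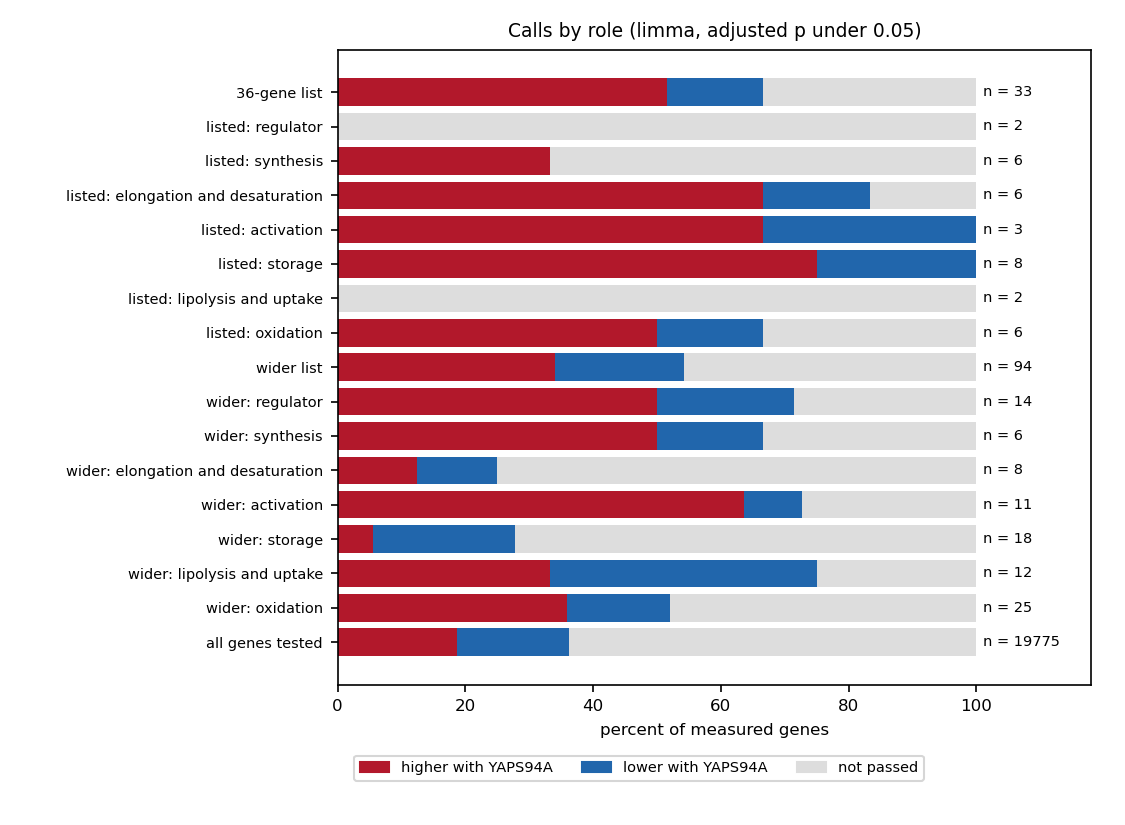
Share of measured genes higher, lower or not past the test with YAPS94A, for the 36-gene list (33 measured), its roles, a wider list of fatty acid genes (94 measured) and all 19775 genes. Red and blue together reach 66.7% for the 36-gene list and 36.3% for all genes. Among genes above the median level these shares were 72.4% and 55.7% (not drawn).

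**Figure D2:**
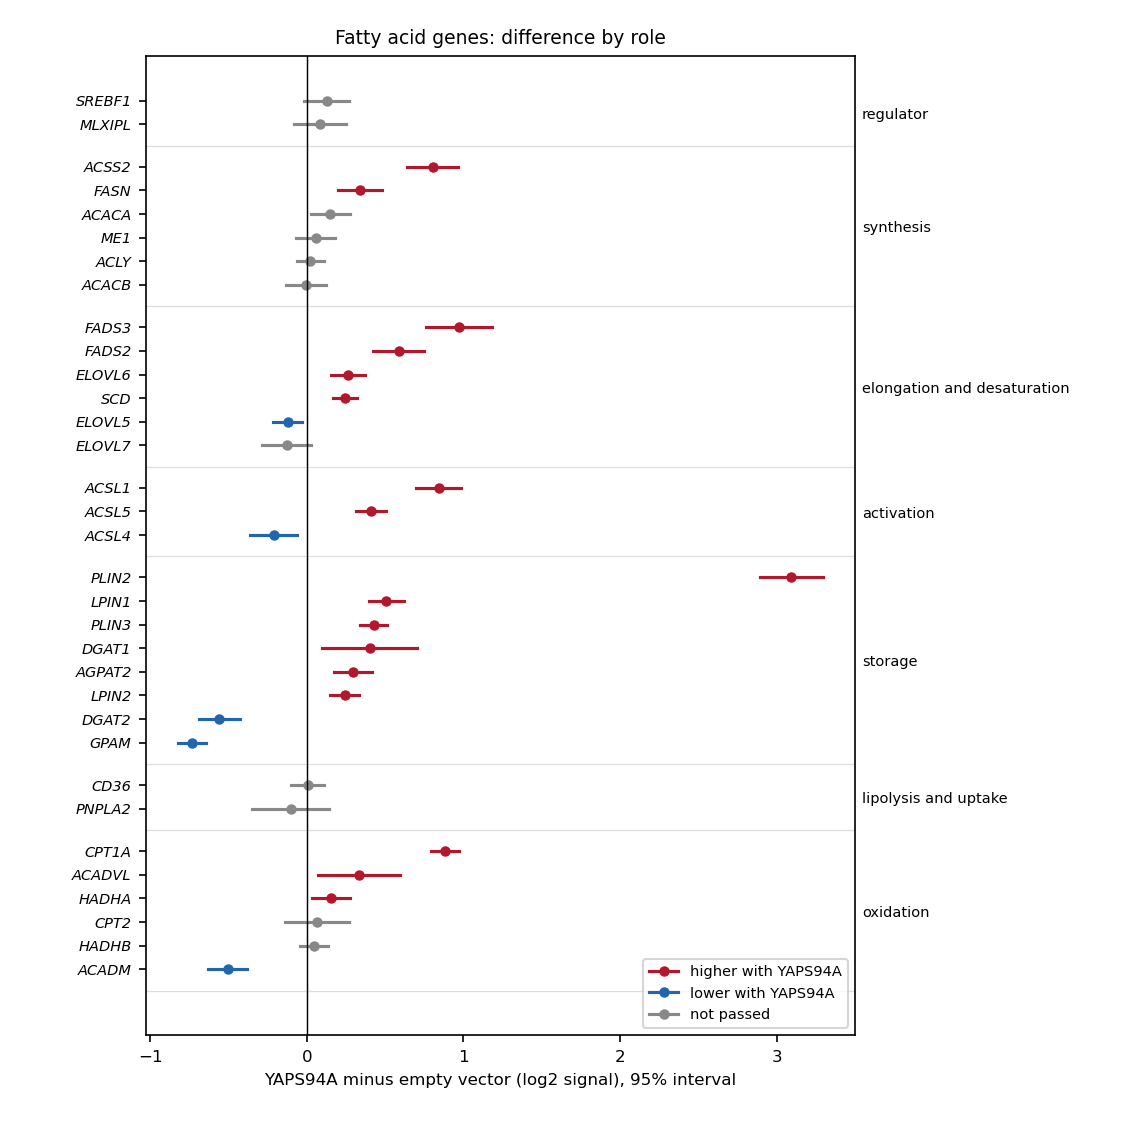
Difference between YAPS94A and empty vector in log2 signal for each of the 33 measured genes, grouped by role, with 95% intervals from limma; red and blue mark genes past the test. PLIN2 stands alone at 3.09, and all others lie between -0.73 and 0.97.

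SREBF1, which encodes SREBP-1, did not pass. It read 7.72, 7.74, 7.87, 7.80 and 7.80 with YAPS94A, against 7.56, 7.45, 7.80, 7.75 and 7.74 with empty vector (0.13 ± 0.066, SE, adjusted p = 0.166). The groups overlapped, and the 2 low arrays were empty vector arrays 1 and 2. In the mean of its 2 probe sets SREBF1 passed (0.21, adjusted p = 0.0226). MLXIPL, which encodes ChREBP, was dim in both groups (5.90 ± 0.10 and 5.82 ± 0.15, SD, n = 5 each) and differed by 0.08 (95% interval -0.08 to 0.25).

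In synthesis the clear rise was in ACSS2, which makes acetyl-CoA from acetate. ACSS2 read 10.03, 10.22, 10.06, 10.00 and 10.03 with YAPS94A, against 9.46, 9.31, 9.31, 9.20 and 9.04 with empty vector. Every YAPS94A array lay above every empty vector array, by 0.54 or more, and the difference was 0.80 ± 0.073 (1.74-fold, adjusted p = 3.60e-06). FASN, the fatty acid synthase, rose by less (9.54 ± 0.13 and 9.20 ± 0.076, difference 0.34 ± 0.063, adjusted p = 0.00108), and its dim second probe set did not pass (-0.04, adjusted p = 0.568 over all probe sets).

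The enzymes that stand between citrate and malonyl-CoA did not pass. ACLY, which splits citrate into acetyl-CoA, averaged 12.28 ± 0.064 with YAPS94A and 12.26 ± 0.038 with empty vector, with a 95% interval of -0.06 to 0.11 for the difference. ACACB, the acetyl-CoA carboxylase at the outer mitochondrial membrane, differed by -0.002 (interval -0.13 to 0.13), and none of its 7 probe sets passed. ACACA, the cytosolic carboxylase, was close to the threshold (0.15 ± 0.056, adjusted p = 0.0544). It passed under 11 of 22 alternatives, among them a block for array number (adjusted p = 0.00949) and the fits without empty vector array 1 or YAPS94A array 4 (adjusted p = 0.0286 to 0.0481), while its second probe set was lower (-0.13, adjusted p = 0.0394 over all probe sets). ME1, the malic enzyme that supplies NADPH, differed by 0.06 (adjusted p = 0.497) on its brightest probe set and by 0.24 (adjusted p = 0.0115 over all probe sets) on the next.

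The 3 desaturases measured among the 36 genes rose. FADS3, a member of the fatty acid desaturase cluster, had the largest difference of its role: 9.75, 9.86, 9.60, 9.48 and 9.49 with YAPS94A, against 8.95, 8.65, 8.65, 8.51 and 8.53 with empty vector. No array of one group reached the other, and the rise was 1.96-fold (0.97 ± 0.096, adjusted p = 6.72e-06), with 0.95 on the second probe set. FADS2, the delta-6 desaturase, lies next to FADS3 on chromosome 11 and read 6.97, 7.16, 6.78, 6.99 and 6.94 with YAPS94A, against 6.44, 6.38, 6.53, 6.38 and 6.19 with empty vector (0.59 ± 0.075, adjusted p = 6.18e-05). That call rests on an _s_at probe set, since the other FADS2 probe set, at 5.53 and 5.46, did not pass (0.07, adjusted p = 0.343 over all probe sets).

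SCD, the stearoyl-CoA desaturase, averaged 13.30 ± 0.020 with YAPS94A and 13.06 ± 0.055 with empty vector and rose by 0.25 ± 0.036 (adjusted p = 1.71e-04). Its other 3 probe sets gave larger rises, of 0.56, 0.72 and 0.72. ELOVL6, which elongates palmitate, rose by 0.26 ± 0.048 (adjusted p = 0.0010), with 0.48 on a further probe set and 0.06 on another that did not pass. ELOVL5, an elongase of polyunsaturated fatty acids, fell by 0.12 ± 0.041 (adjusted p = 0.0368), but the direction is uncertain: its next probe set was higher (0.38, adjusted p = 8.93e-04 over all probe sets). The ELOVL5 call was also lost without any 1 of 8 arrays, all but empty vector array 1 and YAPS94A array 3 (adjusted p = 0.0546 to 0.0861). ELOVL7 did not pass (-0.13 ± 0.072, adjusted p = 0.204), except without empty vector array 1 (-0.19, adjusted p = 0.0239) and with the ACTB 3′ to 5′ difference as a covariate (adjusted p = 0.00223). FADS1 and ELOVL1 are read only by probe sets that carry a second symbol and are not measured here.

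Of the long-chain acyl-CoA synthetases, ACSL1 and ACSL5 rose and ACSL4 fell. ACSL1 read 10.84, 10.87, 10.82, 10.62 and 10.59 with YAPS94A, against 9.98, 10.00, 9.91, 9.84 and 9.81 with empty vector. The groups were 0.59 apart at their nearest, and the rise was 1.79-fold (0.84 ± 0.066, adjusted p = 9.26e-07), with 0.95 on the second probe set. ACSL5 averaged 12.09 ± 0.045 and 11.68 ± 0.075 (0.41 ± 0.043, adjusted p = 1.22e-05), with 0.43 on its second probe set. ACSL4, which prefers arachidonate and other polyunsaturated acids, averaged 11.54 ± 0.099 and 11.75 ± 0.14 (-0.21 ± 0.070, adjusted p = 0.0320).

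The ACSL4 groups overlapped, although its other 2 probe sets were lower too (-0.22 and -0.16). Those 2 probe sets were dim, at 5.545 and 4.667 with YAPS94A and 5.769 and 4.823 with empty vector. The ACSL4 call was lost when array number was blocked (adjusted p = 0.0565) and relative to its neighbours (-0.18, adjusted p = 0.0606). It was also lost without any 1 of 6 arrays, those numbered 2, 4 and 5 of both vectors (adjusted p = 0.0512 to 0.0781). ACSL3 has no probe set in the annotation used.

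The largest difference of the list was in storage. PLIN2, the perilipin that coats lipid droplets in most cells, read 9.03, 8.85, 9.17, 9.06 and 8.89 with YAPS94A, against 6.11, 5.69, 6.03, 5.72 and 6.01 with empty vector. The nearest arrays of the groups were 2.75 log2 units apart. The rise was 8.53-fold (3.09 ± 0.091, adjusted p = 2.20e-10) and ranked 22 among 19775 genes. With empty vector PLIN2 lay below the median level of genes (7.63), where a fold is less certain. Its second probe set, an _x_at set at 4.54 and 4.57 and thus below the lower quartile, did not differ detectably (-0.03, adjusted p = 0.790 over all probe sets). PLIN3, another droplet coat protein, rose by 0.43 ± 0.040 (10.75 ± 0.030 and 10.32 ± 0.069, adjusted p = 4.28e-06).

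The steps of triglyceride assembly went both ways. GPAM, the mitochondrial acyltransferase of the first step, fell: 9.01, 8.96, 8.98, 9.12 and 9.03 with YAPS94A, against 9.71, 9.74, 9.83, 9.74 and 9.72 with empty vector. Its groups stood 0.59 apart, and the fall was 1.66-fold (-0.73 ± 0.041, adjusted p = 5.16e-08), with -0.64 on the second probe set. AGPAT2, the acyltransferase of the next step, rose by 0.29 ± 0.056 (9.42 ± 0.080 and 9.13 ± 0.10, adjusted p = 0.00124), and its second probe set by 0.29. ACSL5, which lies near GPAM on chromosome 10 with 1 protein-coding gene between them, moved in the opposite direction to GPAM.

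The lipins are phosphatidate phosphatases that make diacylglycerol, and LPIN1 and LPIN2 rose. LPIN3, a lipin of the wider list, did not pass (6.265 with YAPS94A and 6.189 with empty vector, difference 0.076, limma adjusted p = 0.2625). LPIN1 read 11.62, 11.84, 11.71, 11.74 and 11.82 with YAPS94A, against 11.30, 11.30, 11.13, 11.20 and 11.26 with empty vector (0.51 ± 0.051, adjusted p = 8.28e-06). All YAPS94A arrays of LPIN1 lay above all empty vector arrays, and its other probe sets rose by 0.48 and 0.34. LPIN2 rose by 0.24 ± 0.041 (9.19 ± 0.036 and 8.95 ± 0.072, adjusted p = 5.88e-04), and by 0.28 on its second probe set.

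The 2 acyltransferases that complete triglyceride went in opposite directions. DGAT2 fell: 7.71, 7.85, 7.66, 7.81 and 7.61 with YAPS94A, against 8.42, 8.25, 8.31, 8.16 and 8.27 with empty vector (-0.56 ± 0.059, 1.47-fold lower, adjusted p = 1.18e-05). The groups of DGAT2 did not overlap, and its second probe set gave -0.74. DGAT1, an unrelated enzyme for the same reaction, rose by 0.40 ± 0.14 (8.73 ± 0.25 and 8.33 ± 0.26, adjusted p = 0.0410), with wide spread and overlapping groups. The DGAT1 call was lost without any 1 of 7 arrays, all but empty vector array 1 and YAPS94A arrays 3 and 5 (adjusted p = 0.0520 to 0.0992), after quantile normalization (adjusted p = 0.0540) and relative to its neighbours (0.23, adjusted p = 0.217). With the ACTB 3′ to 5′ difference as a covariate it was 0.51 (adjusted p = 6.78e-07).

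**Figure D3:**
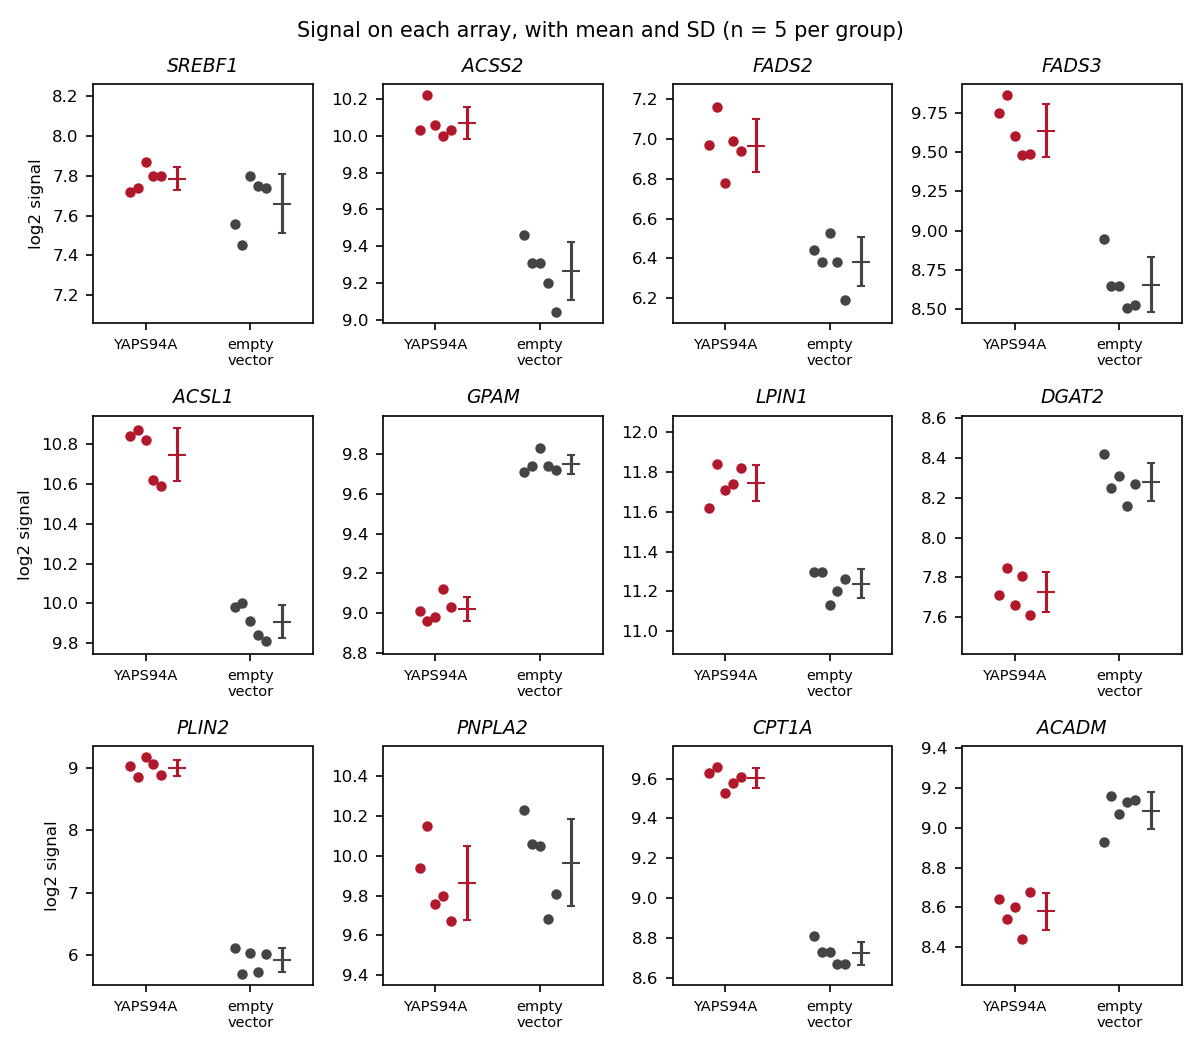
Log2 signal on each array (points) with mean and SD beside them, YAPS94A left and empty vector right, for the 10 genes that differed by at least 0.5 without overlap and for SREBF1 and PNPLA2, the largest differences of their roles. Groups separate in all panels but those of SREBF1 and PNPLA2; each panel has its own axis range.

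Neither gene of lipolysis and uptake passed. PNPLA2, the lipase that opens triglyceride breakdown, read 9.94, 10.15, 9.76, 9.80 and 9.67 with YAPS94A, against 10.23, 10.06, 10.05, 9.68 and 9.81 with empty vector. The groups overlapped (-0.10 ± 0.11, adjusted p = 0.540), and the 95% interval ran from -0.35 to 0.14. CD36, a fatty acid translocase, was dim on all 5 probe sets (at most 5.24 in either group) and none passed.

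Among the 6 oxidation genes of the 36, the largest rise was at the entry point. CPT1A, the carnitine palmitoyltransferase that controls entry of acyl groups into mitochondria, read 9.63, 9.66, 9.53, 9.58 and 9.61 with YAPS94A, against 8.81, 8.73, 8.73, 8.67 and 8.67 with empty vector. The groups stood 0.72 apart, and the rise was 1.84-fold (0.88 ± 0.041, adjusted p = 1.06e-08). Its other 3 probe sets rose by 0.67, 0.63 and 0.47. CPT2, the partner enzyme on the inner membrane, did not pass (8.67 ± 0.11 and 8.61 ± 0.21, 95% interval -0.14 to 0.27), except without the arrays numbered 1 and 2 (0.16, adjusted p = 0.0418).

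Inside the mitochondrion, ACADM, the medium-chain acyl-CoA dehydrogenase, fell: 8.64, 8.54, 8.60, 8.44 and 8.68 with YAPS94A, against 8.93, 9.16, 9.07, 9.13 and 9.14 with empty vector. No array overlapped (-0.50 ± 0.057, 1.42-fold lower, adjusted p = 2.25e-05). ACADVL, the very-long-chain dehydrogenase, rose by 0.33 ± 0.12 (10.77 ± 0.21 and 10.44 ± 0.22, adjusted p = 0.0473), and HADHA, the alpha subunit of the trifunctional protein, by 0.15 ± 0.056 (adjusted p = 0.0479). The groups overlapped for these 2 genes.

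The ACADVL call was lost without any 1 of 8 arrays, all but empty vector array 1 and YAPS94A array 5 (adjusted p = 0.0603 to 0.109), and after quantile normalization (adjusted p = 0.0535). The HADHA call was lost without any 1 of 8, all but empty vector arrays 1 and 2 (adjusted p = 0.0557 to 0.110), after quantile normalization (adjusted p = 0.0595), relative to its neighbours (adjusted p = 0.144) and without _x_at and _s_at probe sets (0.05, adjusted p = 0.693). With the ACTB covariate the differences were 0.42 for ACADVL (adjusted p = 2.10e-05) and 0.19 for HADHA (adjusted p = 5.54e-04). HADHB, the beta subunit, did not pass (0.05 ± 0.041, adjusted p = 0.431). HADHA and HADHB are adjacent and divergent, and their promoter windows share 194 bases. That overlap was taken on the windows before they were cut to the 250 bases searched for motifs.

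With the brightest probe set of each gene included, the 33 genes had 78 probe sets, with 25 genes read by more than 1. Tested over all 54613 probe sets that are not controls, 30 of the 78 were higher and 9 lower, 39 in all, beside 28.6% of all probe sets. No gene had called probe sets in both directions in that fit. ELOVL5 and ACACA had a brighter probe set short of the threshold and a dimmer called one of the opposite sign.

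**Figure D4:**
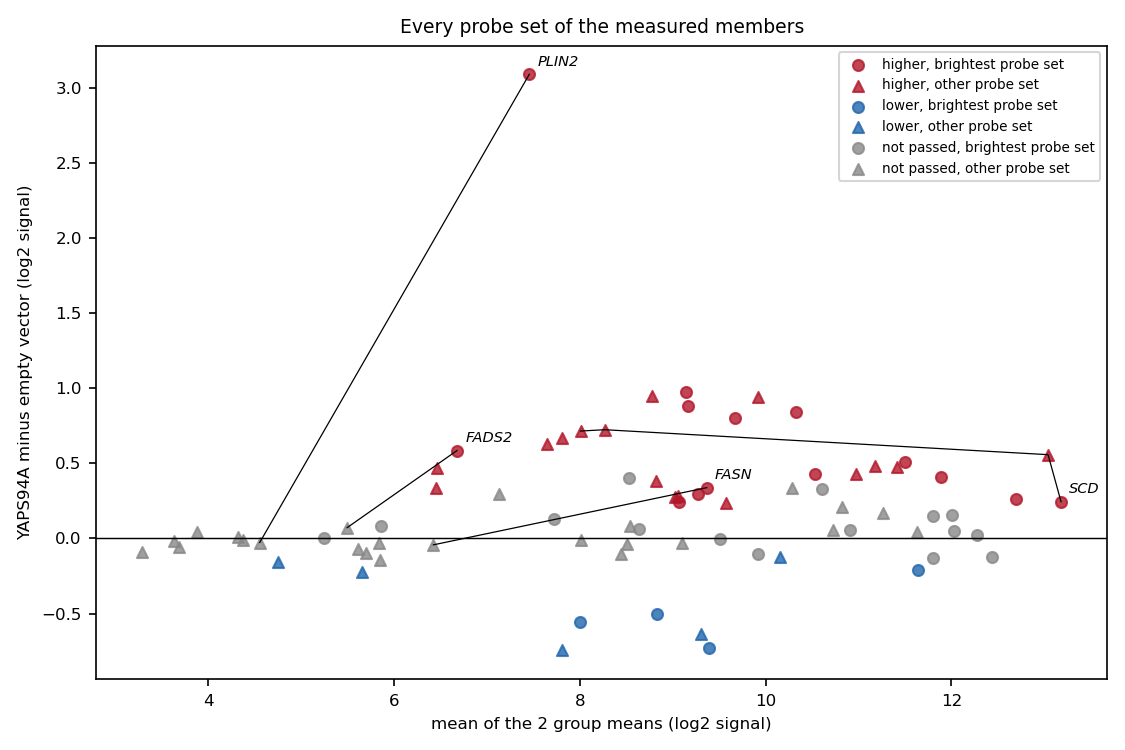
Difference in log2 signal against level for all 78 probe sets of the 33 measured genes; circles are the brightest probe set of a gene, triangles the others, and colours mark calls over all probe sets. Lines join the probe sets of PLIN2, FADS2, FASN and SCD: the dim sets of PLIN2, FADS2 and FASN lie near 0, whereas all 4 of SCD are raised.

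A wider list of 105 other fatty acid genes, of which 94 were measured, was drawn up beside the 36: 32 rose, 19 fell and 43 did not pass, with a median of 0.022. Calls made up 54.3% of it, beside 36.3% of all genes. This wider list, too, was chosen with earlier results of these data known. Above the median level of genes, 29 of its 62 genes were higher and 13 lower, beside 55.7% of all genes called. Of 18 further storage genes 1 was higher and 4 lower (among them FITM2 0.21, HILPDA -0.19, GPAT3 -0.25), and the FITM2 call was lost in the mean of its probe sets (0.06, adjusted p = 0.139). Of 11 further genes in the activation role 7 were higher and 1 lower. That role also holds acyl-CoA thioesterases, which split acyl-CoA and so reverse activation. The higher genes were the thioesterases ACOT7, ACOT8, ACOT9 and ACOT13, and SLC27A1, SLC27A3 and SLC27A5. ACOT7 lost its call without any 1 of 7 arrays (adjusted p = 0.0504 to 0.0899). SLC27A5 lost its call without _x_at and _s_at probe sets (0.017, adjusted p = 0.824). SLC27A1, a fatty acid transport protein, rose 2.26-fold (8.49 ± 0.039 and 7.32 ± 0.13, adjusted p = 1.64e-08), ACOT13, a thioesterase, rose by 0.44 and SLC27A2 fell by 0.41.

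Among regulators 7 of 14 rose and 3 fell. NR1H3, the liver X receptor alpha, rose by 0.44 ± 0.054 (adjusted p = 3.87e-05) and PPARG by 0.43 ± 0.070 (adjusted p = 4.20e-04), while PPARD fell by 0.37 ± 0.067 and MBTPS2, a protease that releases SREBP, fell by 0.22 ± 0.037. PPARG lay among neighbours with a median of 0.27 and lost its call relative to them (0.16, adjusted p = 0.0849), and MBTPS2 did so in the mean of its probe sets (-0.09, adjusted p = 0.0521). In synthesis 3 of 6 rose and 1 fell. ACSS1, the mitochondrial acetyl-CoA synthetase, rose 2.31-fold (8.63 ± 0.11 and 7.42 ± 0.17) and SLC25A1, the citrate carrier, by 0.58 ± 0.063. In the mean of its probe sets ACSS1 was at 0.25.

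ACSS3 fell by 0.23 ± 0.071 (adjusted p = 0.0232), and the call, though not the direction, was lost without empty vector array 1 or 4 or YAPS94A array 4 or 5 (-0.21 to -0.19, adjusted p = 0.0534 to 0.0583). In elongation and desaturation 1 of 8 rose, TECR, the enoyl-CoA reductase (0.34 ± 0.061, lost without _x_at and _s_at probe sets at an adjusted p of 0.979), and 1 fell. The fall was in SCD5, a second stearoyl-CoA desaturase, by 4.26-fold (7.003 ± 0.13 and 9.09 ± 0.12, adjusted p = 8.55e-10), opposite to the rise of SCD. In the mean of its probe sets SCD5 was at -0.60.

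Further oxidation genes were 9 of 25 higher and 4 lower. DECR1, the 2,4-dienoyl-CoA reductase needed for unsaturated fatty acids, rose 1.80-fold (12.44 ± 0.044 and 11.59 ± 0.066, adjusted p = 1.51e-08) and CRAT, carnitine acetyltransferase, 2.32-fold (8.56 ± 0.23 and 7.35 ± 0.20, adjusted p = 5.97e-06). ACOX2, a peroxisomal oxidase, fell by 0.63 ± 0.077 and ACADSB, a short/branched-chain dehydrogenase, fell by 0.45 ± 0.058. Of 12 genes of lipolysis and uptake, 4 rose and 5 fell. LIPA, the lysosomal acid lipase, rose by 0.42 ± 0.039, PNPLA3 rose by 0.46 ± 0.086, G0S2, an inhibitor of PNPLA2, fell by 0.95 ± 0.066 (adjusted p = 3.59e-07) and FABP6 fell by 1.07 ± 0.081. In the mean of its probe sets FABP6 was at -0.365.

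**Figure D5:**
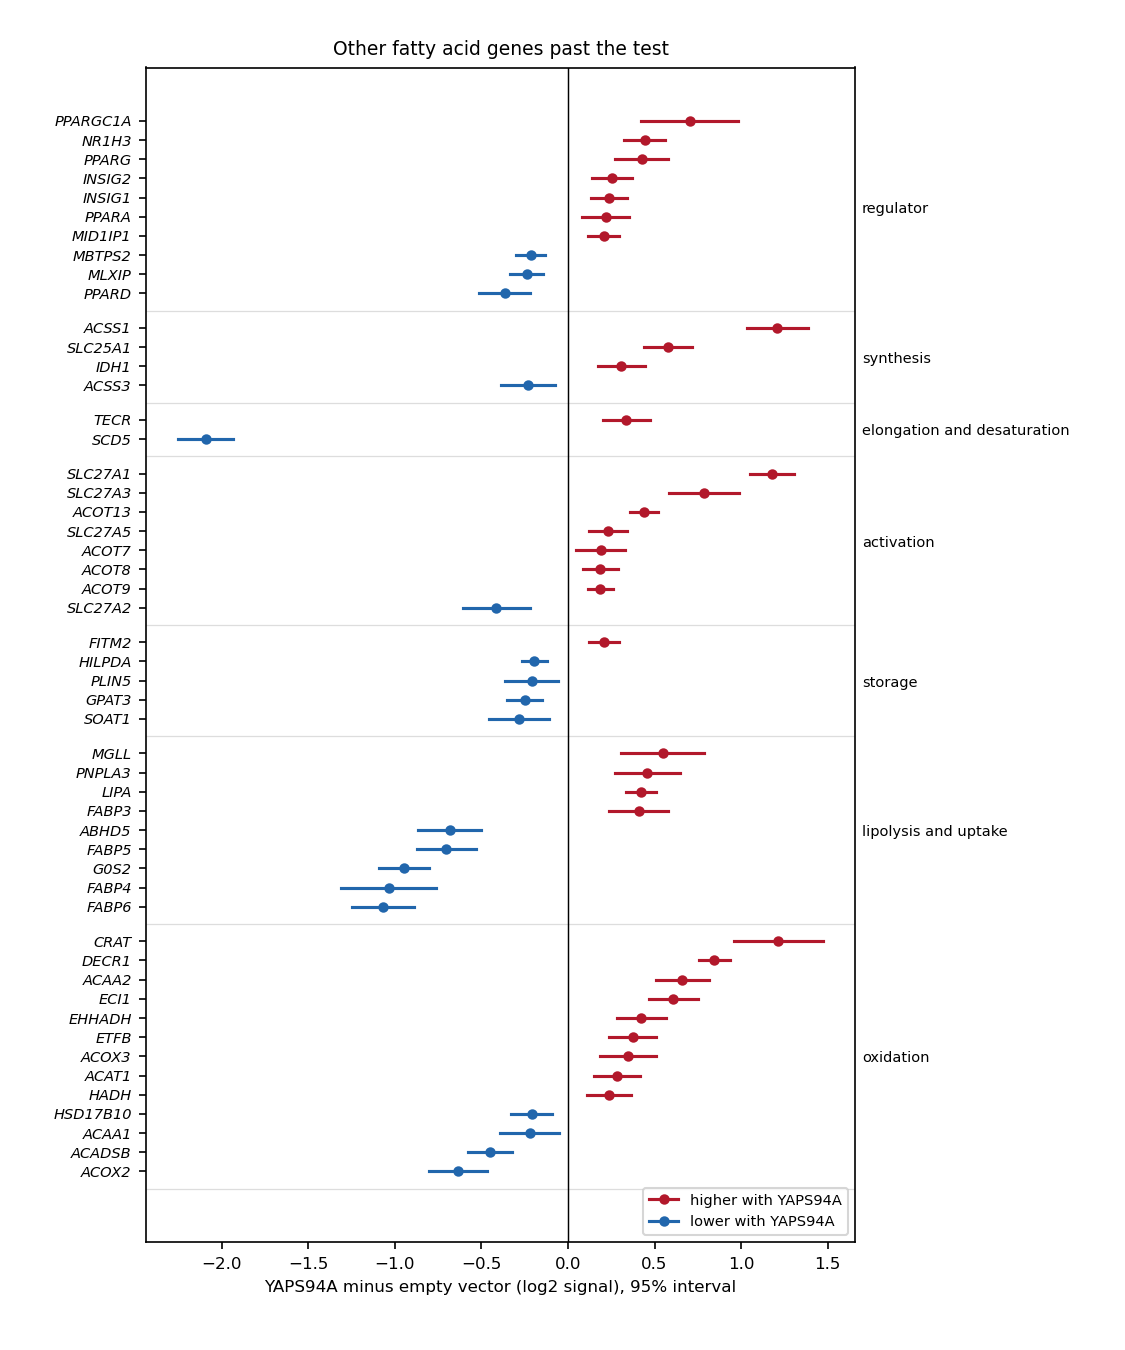
Difference in log2 signal with 95% intervals for the 51 genes of the wider fatty acid list that passed the test, by role; genes that did not pass are left out. SCD5 is lowest at -2.09, and CRAT, ACSS1 and SLC27A1 lie highest, at 1.21, 1.21 and 1.18.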

How the data were processed

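Affymetrix arrays measured total RNA of HuCCT1 cells after NuGEN Ovation amplification and biotin labelling of the cDNA, per the labels' protocols. The deposited values are log2 signals of 54675 probe sets on 10 arrays; the authors' summarisation and normalization are not given in the sources used here, and the values were kept unchanged. An array carries no read depth, so its number limits the precision, and no detection calls were used. Gene names came from the platform's annotation (41097 with 1 symbol, 1801 with several, 11777 with none), with symbols updated through RefSeq (GRCh38.p14, which held 41043), and the 62 control probe sets were left out. For each gene the probe set with the largest 10-array mean was kept, which gave 19775 genes.

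YAPS94A and empty vector were compared with limma 3.58.1 in R 4.3.3 (lmFit and eBayes, two-sided, no covariate), with Benjamini-Hochberg adjustment over all genes. SEs and 95% intervals come from this fit and SDs are over 5 arrays. Neighbour medians are over the 30 nearest genes in chromosome order among genes above the median level. The code was tested on simulated data. The genes, lists, roles and tests were chosen with earlier results of these data known. Values of every array are given for genes of the 36 that differed by at least 0.5 without overlap, and for the largest difference of each role. Of the wider list, the 2 smallest p in each direction of each role are named. No array was identical to another. Same-numbered arrays of the vectors deviated together (correlations of 0.102 to 0.590, all 5 above 0.1, although 4 of 10 arrays correlated best with their own number), so the number was treated as a possible pairing, on the strength of that check alone, since no label states a batch; blocked values are given where they change a call. There were 22 alternatives, 1 of them, the RNA quality covariate, added after the data were seen.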

Additional observations from a re-analysis of the deposited data

Results flagged for a closer look

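GPAM on empty vector array 3 read 9.83, apart from the other 4 empty vector arrays, of which the nearest was at 9.74 and the lowest at 9.71. It was the single array that stood apart by Dixon's ratio (0.748) among 68 sets of 5 arrays examined, where chance gives about 1 in 20. GPAM was lower with YAPS94A in every fit that left out 1 array, that array included.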

How the results depend on the processing

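Of the 22 calls, 16 held under each of the 22 alternatives that gave a value, and 6 of the 11 genes without a call gained none. Among these 16, ACSS2, FASN, SCD, ACSL5, LPIN2, DGAT2 and PLIN3 gave no value without _x_at and _s_at probe sets. PLIN2 gave none among genes above the median level. Calls were lost for ELOVL5, FADS2, ACSL4, DGAT1, ACADVL and HADHA, and gained for SREBF1, ACACA, ME1, ELOVL7 and CPT2. ELOVL5 was 0.024 in the mean of its probe sets, ACOT8 -0.137, and PLIN5 0.113 without _x_at and _s_at probe sets, each turned in sign and none past the test; for ELOVL5 the mean includes a probe set of the opposite sign (0.38), and for ACOT8 and PLIN5 the cause was not tested. Without _x_at and _s_at probe sets only 23 of the 33 genes remained, 9 of them higher and 4 lower. Calls in that setting covered 56.5% of the remaining genes, beside 33.6% of all genes. Of the wider list 75 of the 94 genes remained, 21 of them higher. The medians were then 0.072 for elongation and desaturation and 0.309 for activation. In the mean of probe sets the median of elongation and desaturation was 0.298. PLIN2 was then at 1.53, FASN at 0.148, FADS2 at 0.329, TECR at 0.171 and ACSS3 at -0.136. Relative to neighbours the storage median was 0.228 and YAP1 was at 0.259 (adjusted p = 0.0821); the cause was not tested. Leaving out 1 array at a time gave 14 to 18 genes higher and 3 to 6 lower. The count lower was 3 without empty vector array 2, 4 or 5 or YAPS94A array 2, 4 or 5. With the replicate block 18 genes were higher and 4 lower, and ACACA and ACSL4 were the calls of the list that it changed. Of the 51 calls of the wider list, 38 held throughout. Signals below the median level of genes (7.63) limit what can be seen of CD36, MLXIPL and FADS2, and of PLIN2 with empty vector. The same holds for genes of the wider list such as ACSS3 (5.43 with YAPS94A and 5.66 with empty vector), ACOX2 (5.80 and 6.43) and FABP6 (5.71 and 6.78).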

Other observations

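Further perilipins, fatty acid binding proteins and partners of PNPLA2 are given here, chosen after their values were seen. None of the other 3 perilipins passed as higher: PLIN1 (3.75 and 3.76) was below the lower quartile of signals in both groups, PLIN4 was at 5.80 and 5.82, and PLIN5 was lower (6.64 ± 0.15 and 6.85 ± 0.072, adjusted p = 0.0347), although it lost that call under 8 alternatives and turned in sign under another. The fatty acid binding proteins FABP4 (-1.04 ± 0.12), FABP5 (-0.70 ± 0.078) and FABP6 (-1.07 ± 0.081) fell, whereas FABP3 rose by 0.41 ± 0.077. In the mean of its probe sets FABP4 was at -0.55. FABP5 averaged 11.87 ± 0.14 with YAPS94A and 12.58 ± 0.13 with empty vector.

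The lipase PNPLA2 did not pass, but genes that act on it did. ABHD5, its co-activator, fell by 0.68 ± 0.083 (10.17 ± 0.14 and 10.86 ± 0.15, adjusted p = 4.17e-05) and G0S2, its inhibitor, was 1.93-fold lower (11.47 ± 0.12 and 12.42 ± 0.11). MGLL, which completes triglyceride breakdown, rose by 0.55 ± 0.11 (adjusted p = 0.00171).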
